A study of Homo sapiens with 18 samples.

Results

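The E2F transcription factors and the pocket proteins that bind them were followed through 18 RNA-seq libraries of 2 bladder cancer (BLCA) cell lines in which ACAT1 was knocked down. The members were taken by gene symbol from the deposited tables: E2F1, E2F2 and E2F3 (activating E2Fs), E2F4, E2F5 and E2F6 (repressing E2Fs), E2F7 and E2F8 (atypical E2Fs), and RB1 and RBL1 (pocket proteins), which are 10 of the 39496 genes in the tables. All 10 passed the filter on low counts, which left 20144 genes for testing. Cells of the established human lines UM-UC-3 and T24 were transfected with a control siRNA (siNC, genotype WT in the labels) or with siACAT1-1 or siACAT1-2, different siRNA sequences against ACAT1 (genotype ACAT1 knockdown in the labels), with the same transfection reagent in every group. The study grew T24 cells in RPMI medium and UM-UC-3 cells in MEM. Each of the 6 groups held 3 libraries, numbered 1 to 3 in the labels, and the submitters described the experiments as independent. Knockdown by siRNA is transient and partial, and the replicates of a group come from 1 cell line, so they measure the spread between experiments with that line. The libraries held between 25163490 and 34417230 counted reads (median 28613163).

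E2F factors bind promoters of cell cycle genes, mostly as dimers with a DP protein. In resting cells RB1 and its relatives RBL1 (p107) and RBL2 (p130) hold E2Fs in check, and phosphorylation of the pocket proteins by cyclin-dependent kinases frees the activating E2Fs to switch on genes for DNA replication. E2F4 and E2F5 act mainly with RBL1 and RBL2 as repressors, E2F6 represses without pocket proteins as part of a Polycomb complex, and E2F7 and E2F8 bind DNA without DP partners and shut down E2F targets late in S phase. Loss of RB1 function is a frequent event in muscle-invasive bladder cancer.

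Several members are themselves E2F target genes, so the promoters that carry E2F-type letters are shown with those of E2F4 for comparison. RefSeq promoters (GRCh38.p14, 250 bases before to 50 bases after a start) were found for 8 of the 10 genes, and those of E2F5 and E2F8 were not among them. The letters searched were TTTCCCGC, TTTCGCGC, TTTGCCGC and TTTGGCGC on both strands, forms that differ from each other only in the middle pair of bases, so that no site counts under more than 1 form. At least 1 match stood in the promoters of 4 members, E2F1, E2F2, E2F3 and RBL1, against 3.31% of the 35116 promoters of the same length. E2F1 (chr20:33686336-33686635, minus strand) and RBL1 (chr20:37095948-37096247, minus strand) each held 2 matches, which 0.145% of promoters did. Capitals mark the matches, each sequence is written 5′ to 3′ along the gene, and a match is a description of the letters, not of a bound site.
E2F1: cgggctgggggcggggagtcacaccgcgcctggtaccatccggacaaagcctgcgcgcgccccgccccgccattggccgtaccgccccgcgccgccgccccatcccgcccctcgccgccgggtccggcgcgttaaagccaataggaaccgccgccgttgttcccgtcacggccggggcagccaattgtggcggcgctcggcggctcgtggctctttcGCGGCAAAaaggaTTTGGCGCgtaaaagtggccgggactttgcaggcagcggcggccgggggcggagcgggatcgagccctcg
RBL1: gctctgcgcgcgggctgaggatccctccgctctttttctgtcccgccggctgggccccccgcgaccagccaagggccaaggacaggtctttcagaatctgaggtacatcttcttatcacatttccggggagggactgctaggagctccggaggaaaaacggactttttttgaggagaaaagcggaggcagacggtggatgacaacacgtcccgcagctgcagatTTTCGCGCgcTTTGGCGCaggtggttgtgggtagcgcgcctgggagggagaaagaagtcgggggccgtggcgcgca
E2F2 (chr1:23531184-23531483, minus strand) and E2F3 (chr6:20401629-20401928, plus strand) held 1 match each, and E2F4 (chr16:67191905-67192204, plus strand) held none.
E2F2: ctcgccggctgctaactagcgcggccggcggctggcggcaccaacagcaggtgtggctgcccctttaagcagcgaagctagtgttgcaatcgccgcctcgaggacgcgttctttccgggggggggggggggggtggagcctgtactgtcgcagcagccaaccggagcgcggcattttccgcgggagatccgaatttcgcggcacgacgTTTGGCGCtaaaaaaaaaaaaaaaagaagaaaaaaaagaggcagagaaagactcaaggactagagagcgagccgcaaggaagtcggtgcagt
E2F3: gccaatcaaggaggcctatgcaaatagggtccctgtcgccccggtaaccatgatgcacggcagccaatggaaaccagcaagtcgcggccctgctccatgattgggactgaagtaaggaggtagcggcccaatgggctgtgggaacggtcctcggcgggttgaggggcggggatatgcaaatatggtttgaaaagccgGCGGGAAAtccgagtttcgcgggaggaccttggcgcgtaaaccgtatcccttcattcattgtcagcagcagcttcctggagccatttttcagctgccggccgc
E2F4: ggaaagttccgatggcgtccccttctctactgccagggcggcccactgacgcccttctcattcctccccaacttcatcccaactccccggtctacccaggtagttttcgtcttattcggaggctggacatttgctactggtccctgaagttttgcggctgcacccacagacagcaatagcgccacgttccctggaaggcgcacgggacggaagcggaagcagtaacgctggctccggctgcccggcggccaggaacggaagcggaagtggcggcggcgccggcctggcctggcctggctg
Counted from the start site, the matches began at -33 and -20 in E2F1, at -26 and -16 in RBL1, at -42 in E2F2 and at -53 in E2F3. A second start of E2F3 and the promoters of E2F6 and E2F7 held no match, and the only RB1 entry belongs to an internal start and is not shown.

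ACAT1, a mitochondrial enzyme of ketone body and isoleucine breakdown, was low in every library labelled as knocked down. It stood between 44.1 and 47.4 RPKM (reads scaled by gene length and by the total counted reads of the library) in the UM-UC-3 siNC libraries and between 14.6 and 17.1 in those of T24. Group means were lower by 92.0% to 95.3% in the 4 siACAT1 groups. The reduction was deeper with siACAT1-2 than with siACAT1-1 (log2 difference -0.62, SE 0.15, adjusted p = 0.034). Of 11 urothelial markers in the table, 0 exceeded a mean of 1 RPKM in UM-UC-3 and 2, PPARG and FOXA1, did in T24. Of 6 epithelial markers 3 in UM-UC-3 and 5 in T24 exceeded that mean, KRT8 and KRT18 among them, while CDH1 reached at most 0.033 RPKM in any library and EPCAM and KRT19 averaged 0.050 and 0.10 in UM-UC-3. Of 4 mesenchymal markers 3 in UM-UC-3 and 4 in T24 exceeded a mean of 1 RPKM. VIM stood between 138 and 328 RPKM, while FN1 averaged 0.84 in UM-UC-3 and 15.9 in T24. Of 3 leukocyte markers PTPRC and CD3E stayed below 0.1 RPKM in every library and CD68 stood between 15.7 and 216, and the 3 endothelial markers stayed below 0.1.

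E2F4 had the highest mean RPKM of the members in all 6 groups, and E2F2 had the lowest in 5 of them. In UM-UC-3 siNC cells E2F4 averaged 10.5 ± 2.18 RPKM (SD, n = 3), followed by E2F1 at 4.58 ± 2.30, E2F3 at 4.40 ± 0.72, RBL1 at 3.88 ± 1.18, E2F6 at 3.78 ± 0.46, E2F8 at 3.77 ± 1.15 and E2F5 at 3.45 ± 0.12. RB1 at 2.95 ± 0.51, E2F7 at 1.85 ± 0.07 and E2F2 at 1.31 ± 0.49 came last. The ranges of neighbours from E2F1 down to E2F5 overlapped, so their order in this line is not resolved. RB1, at 2.37 to 3.34 RPKM, lay below E2F5 but overlapped E2F1, RBL1 and E2F8, so its place is not resolved either. E2F4 stood clear above the others, and E2F7 and E2F2 were each clear of the genes ranked above them. In T24 siNC cells E2F4 again had the highest mean, 13.8 ± 2.03 RPKM, with E2F1 at 9.45 ± 1.11 and E2F7 at 8.82 ± 4.39 next and overlapping each other. The range of E2F7, 6.11 to 13.9 RPKM, also overlapped that of E2F4, 11.5 to 15.4, so their order is not resolved. RBL1, whose range overlapped that of E2F7 but lay above that of E2F5, followed at 5.56 ± 0.76. Then came E2F5 at 4.12 ± 0.15, E2F6 at 3.74 ± 0.88, RB1 at 3.44 ± 0.56, E2F3 at 3.42 ± 0.61 and E2F8 at 2.68 ± 0.34. Neighbours from E2F5 down to E2F8 overlapped. E2F2 was far below at 0.351 ± 0.073 RPKM.

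Between the control cells of the lines, E2F7 and E2F2 were the members that passed the test, 2 of 10 against 44.3% of all 20144 genes. E2F7, an atypical repressor, stood at 1.78, 1.86 and 1.92 RPKM in the UM-UC-3 siNC libraries and at 6.11, 13.9 and 6.45 in those of T24. The groups did not overlap, and the log2 fold change of UM-UC-3 against T24 was -2.19 (SE 0.40, adjusted p = 0.00030). E2F2, an activating E2F, went the other way, with 1.42, 1.74 and 0.777 RPKM in UM-UC-3 and 0.394, 0.267 and 0.392 in T24. Its log2 fold change was 1.94 (SE 0.52, adjusted p = 0.0060). E2F1 was on average lower in UM-UC-3 (-0.998, SE 0.51, adjusted p = 0.13), but this difference did not pass the test. As shares of the summed RPKM of the 8 E2F genes, the repressing E2Fs made up 53.4% ± 4.64 in UM-UC-3 and 46.8% ± 1.68 in T24, the activating E2Fs 29.9% ± 5.04 and 28.9% ± 3.91, and the atypical E2Fs 16.7% ± 0.61 and 24.3% ± 5.54 (SD, n = 3). The cell lines were grown in different media, so line and medium cannot be told apart.

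**Figure D1:**
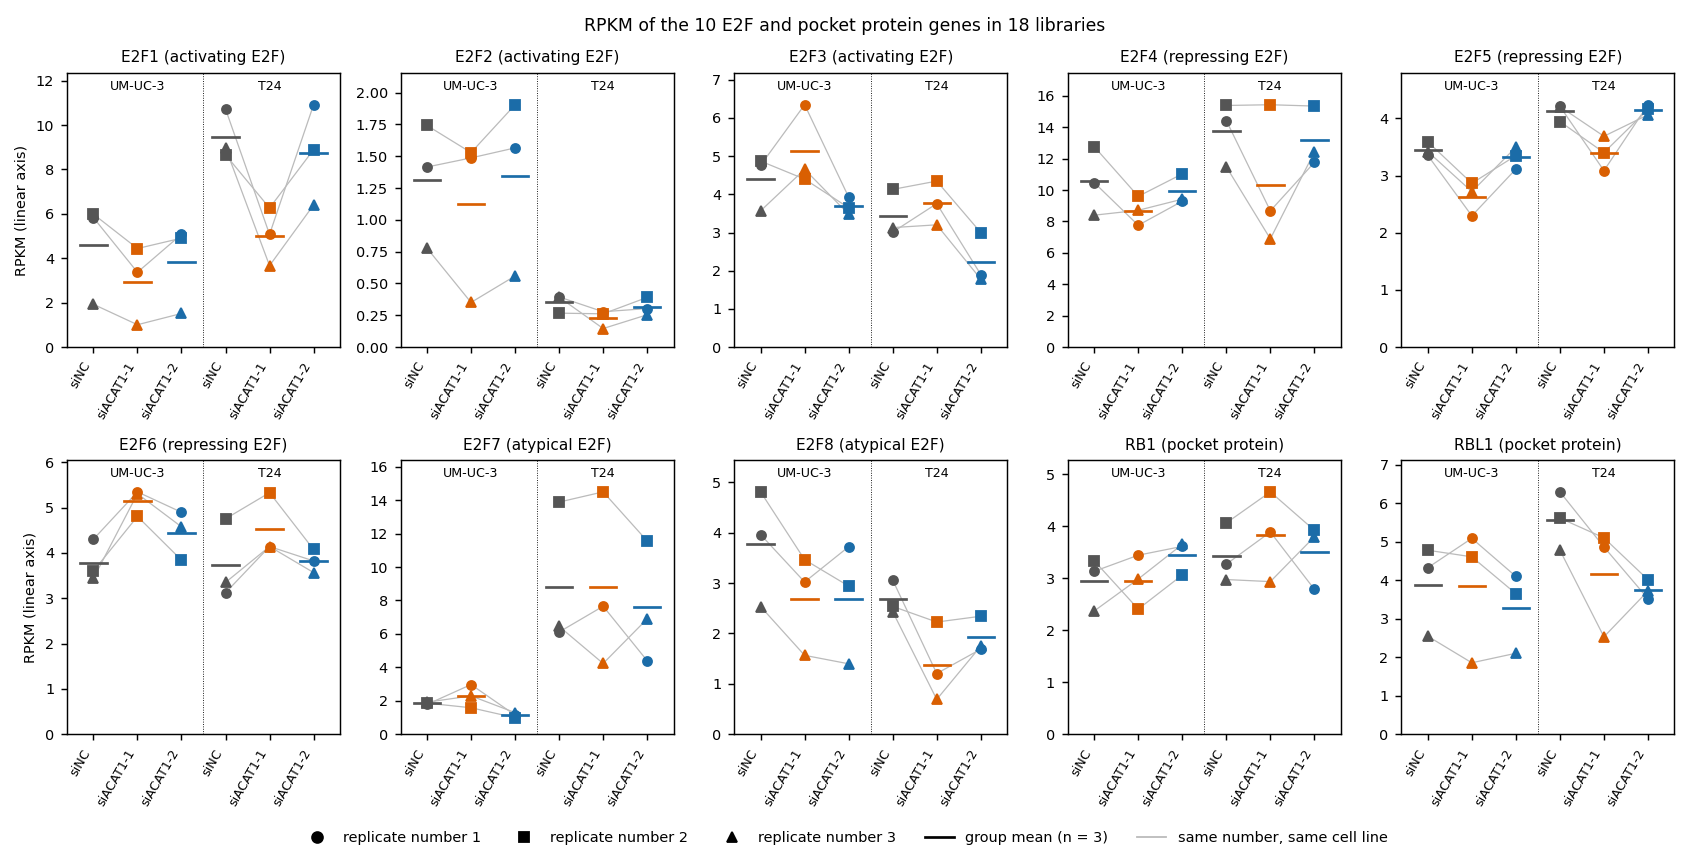
RPKM (linear axis) of each of the 10 genes in the 18 libraries, by group on the x axis, with marker shape giving the replicate number, short bars the group mean of 3 libraries and grey lines joining libraries of the same number and cell line. E2F1, E2F5 and E2F8 lie lower in the siACAT1-1 than in the siNC library of the same number in 6 of 6 numbers, and E2F6 lies higher. E2F7 is far higher in T24 than in UM-UC-3, and the libraries numbered 3 of UM-UC-3 sit low for E2F1, E2F2, E2F8 and RBL1.

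Knockdown of ACAT1 was compared with siNC by cell line and siRNA, in the edgeR quasi-likelihood test over all 18 libraries. With groups alone in the model, 0 of the 10 members passed an adjusted p under 0.05 in any of the 4 comparisons, while 0.00993% of all genes did for siACAT1-1 in UM-UC-3, 0.0546% for siACAT1-2 in UM-UC-3, 0.124% for siACAT1-1 in T24 and 0.268% for siACAT1-2 in T24. At an unadjusted p under 0.05 the members numbered 2 (E2F5 and E2F6, background 5.34%), 0 (background 3.86%), 1 (E2F8, background 11.5%) and 1 (E2F3, background 8.44%), and DESeq2 and limma also called 0 in each. Libraries of the same number and line deviated together, so the same test was run with the number as a block within each line, which compares each siACAT1 library with the siNC library of its own number. The block brought the calls to 1 member (E2F1, background 3.06%) for siACAT1-1 in UM-UC-3, 0 (background 1.36%) for siACAT1-2 in UM-UC-3 where 3 members had an unadjusted p under 0.05 (background 13.4%), 3 (E2F1, E2F4 and E2F8, background 13.9%) for siACAT1-1 in T24 and 2 (E2F3 and RBL1, background 8.48%) for siACAT1-2 in T24, all lower. Over the mean of the 4 comparisons it called 4 members, with E2F1, E2F8 and RBL1 lower (background 6.46% lower) and E2F6 higher (background 5.95% higher), against 0 without the block (background 0.223%), where E2F6 and E2F8 were the 2 members with an unadjusted p under 0.05 (background 10.9%). Both siRNAs of a line were set against the same siNC libraries, so the 2 comparisons of a line are not independent.

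**Figure D2:**
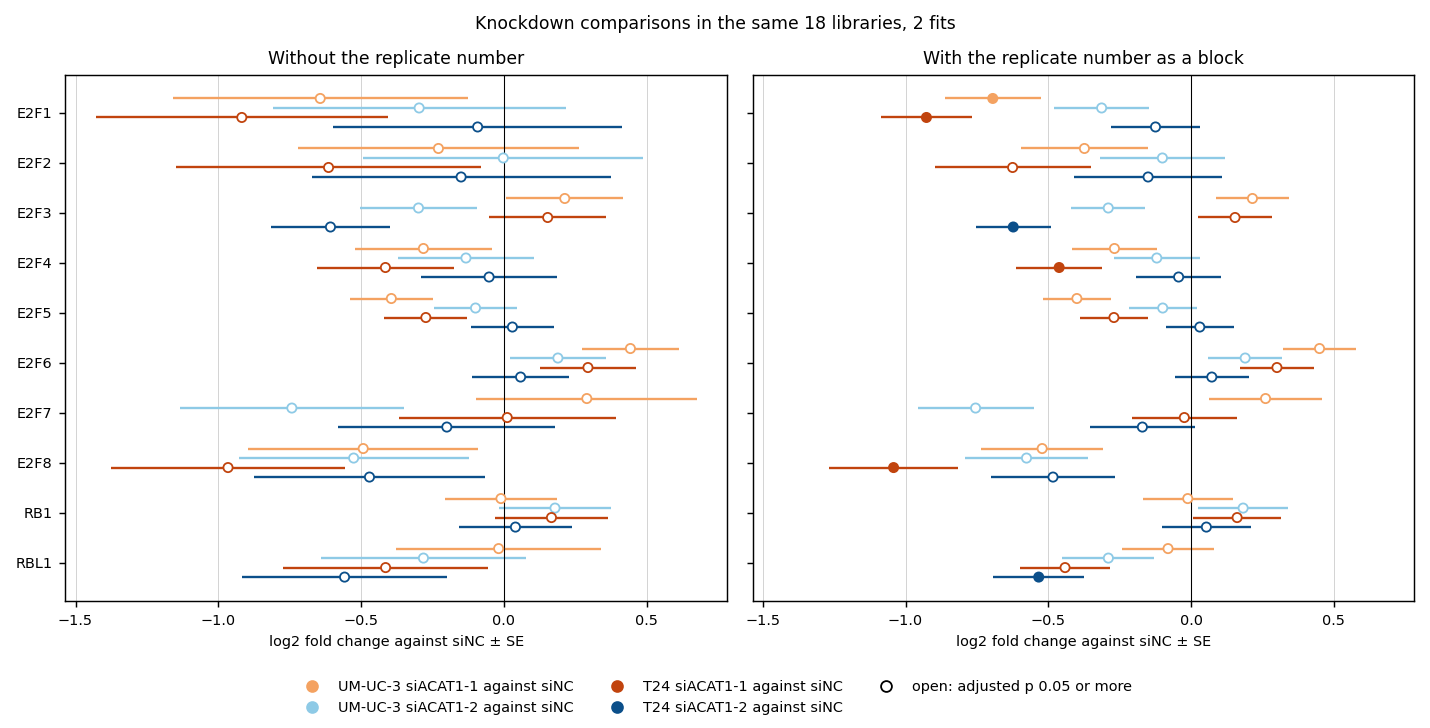
Log2 fold change against siNC (x axis, bars are SE) of the 10 genes in the 4 comparisons, fitted without (left) and with (right) the replicate number as a block, where filled points have an adjusted p under 0.05. The bars of E2F1 shrink from about 0.51 to 0.16 between the panels, the estimate of E2F2 with siACAT1-1 in UM-UC-3 moves from -0.23 to -0.37, and the 6 filled points on the right are E2F1 in both siACAT1-1 comparisons, E2F4 and E2F8 with siACAT1-1 in T24, and E2F3 and RBL1 with siACAT1-2 in T24.

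E2F1, the best studied activator of S phase genes, was lower with siACAT1-1 in both lines in the fit with the block. In UM-UC-3 its RPKM was 5.83, 5.99 and 1.93 with siNC, 3.37, 4.44 and 1.01 with siACAT1-1, and 5.08, 4.91 and 1.51 with siACAT1-2 (replicates 1, 2 and 3). The groups overlapped, with the libraries numbered 3 low in all 3 groups, yet each siACAT1 library was below the siNC library of its number. In T24 the values were 10.7, 8.66 and 8.98 with siNC, 5.08, 6.27 and 3.67 with siACAT1-1, and 10.9, 8.89 and 6.40 with siACAT1-2. Here the siACAT1-1 libraries all lay below the siNC libraries, as for 7.21% of all genes, and those of siACAT1-2 overlapped them. The log2 fold change with siACAT1-1 was -0.64 (SE 0.52, adjusted p = 0.98) in UM-UC-3 and -0.92 (SE 0.51, adjusted p = 0.51) in T24, and with the block -0.69 (SE 0.17, adjusted p = 0.031) and -0.93 (SE 0.16, adjusted p = 0.00083). The UM-UC-3 call was lost without the siNC or siACAT1-1 library numbered 1 or 3 of that line, and the T24 call held without any single library. For siACAT1-2 the estimates were -0.30 (SE 0.51, adjusted p = 1.00) and -0.09 (SE 0.51, adjusted p = 1.00), and the block gave adjusted p = 0.44 and 0.70.

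The effect on E2F1 differed between the siRNAs once the number was in the model. Over both lines, siACAT1-2 minus siACAT1-1 was 0.59 (SE 0.36, adjusted p = 0.45), and 0.59 with the block (SE 0.12, adjusted p = 0.0012), when 20.6% of all genes passed. Averaged over both siRNAs, E2F1 was below siNC in all 6 numbers, from -0.85 to -0.20 on the log2 scale (median -0.53). The blocked mean of the 4 comparisons was -0.51 (SE 0.10, adjusted p = 0.0018, without the block -0.49 and 0.61), and it passed in all 20 fits with libraries left out, with adjusted p from 0.00021 to 0.017.

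E2F2 was counted at 20 to 74 reads per T24 library and 57 to 305 per UM-UC-3 library. Mean RPKM in UM-UC-3 was 1.31 with siNC, 1.12 with siACAT1-1 and 1.34 with siACAT1-2, and in T24 0.351, 0.228 and 0.316. None of the 4 comparisons passed in either fit, and the estimates ran from -0.61 (SE 0.53, T24 with siACAT1-1) to -0.002 (SE 0.49, UM-UC-3 with siACAT1-2). Its libraries overlapped with siNC in all 4 comparisons.

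E2F3, the activator that is amplified in a subset of bladder tumours, differed between the siRNAs. In T24 its RPKM was 3.01, 4.13 and 3.13 with siNC, 3.76, 4.35 and 3.20 with siACAT1-1, and 1.90, 3.00 and 1.78 with siACAT1-2. In every number the siACAT1-1 library was above and the siACAT1-2 library below the siNC library. UM-UC-3 gave 4.76, 4.87 and 3.57 with siNC, 6.35, 4.40 and 4.65 with siACAT1-1, and 3.93, 3.65 and 3.48 with siACAT1-2, and the same order held except in number 2, where siACAT1-1 was also below siNC. The difference of siACAT1-2 minus siACAT1-1 over both lines was -0.64 (edgeR without the block, SE 0.15, adjusted p = 0.028), when 2.56% of all genes passed. E2F3 was the only member to pass in this fit, which kept the filter on low counts. This call was lost without the number 1 library of siACAT1-1 in either line, without any siACAT1-2 library of UM-UC-3, or without the number 1 or 3 library of siACAT1-2 in T24. With the block the adjusted p was 8.3e-05, and its highest value with libraries left out was 0.00103. Against siNC, the log2 fold change of E2F3 with siACAT1-2 in T24 was -0.61 (SE 0.21, adjusted p = 0.35), and with the block -0.62 (SE 0.13, adjusted p = 0.0054), a call that held without any 1 library.

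Among the repressing E2Fs, E2F4 and E2F5 were at or below their control means in most comparisons and E2F6 was above them in all 4. E2F4, the main partner of RBL1 and RBL2, read 14.4, 15.4 and 11.5 RPKM in T24 siNC and 8.67, 15.4 and 6.89 with siACAT1-1. The number 2 libraries were equal at this precision and the other 2 pairs differed, so that the groups overlapped. Its log2 fold change there was -0.41 (SE 0.24, adjusted p = 0.53) and -0.46 with the block (SE 0.15, adjusted p = 0.045), a call that was lost without the siNC library numbered 1 or 3 or the siACAT1-1 library numbered 1 or 3 of T24, and also without the siNC library numbered 1 or 2 or the siACAT1-2 library numbered 2 of UM-UC-3. In UM-UC-3 E2F4 stood between 8.40 and 12.8 RPKM with siNC, between 7.75 and 9.60 with siACAT1-1 and between 9.29 and 11.02 with siACAT1-2, and neither comparison passed.

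E2F5 had the smallest SD of log2 CPM among the members in both lines. In UM-UC-3 siNC it stood at 3.35, 3.59 and 3.42 RPKM, and with siACAT1-1 at 2.30, 2.86 and 2.72. T24 gave 4.21, 3.94 and 4.21 RPKM with siNC and 3.08, 3.40 and 3.69 with siACAT1-1. Neither pair of groups overlapped, as was the case for 6.86% and 7.21% of all genes in this direction. The tests did not pass (UM-UC-3 -0.39, SE 0.15, adjusted p = 0.88, with the block 0.074, and T24 -0.27, SE 0.14, adjusted p = 0.49, with the block 0.14). In edgeR the siRNAs differed only with the block, by 0.30 (SE 0.08, adjusted p = 0.015, without it 0.13). DESeq2, fitted without a block, also called E2F5 between the siRNAs. In the gene models 18.6% of the exon bases of E2F5 also lie in 2 genes on the other strand, mainly C8orf59, and the strand setting of the counting is not given in the sources used here, so reads of these genes may be mixed.

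E2F6, which represses targets with Polycomb proteins, was higher with siACAT1-1 than with siNC in all 6 numbers. UM-UC-3 siNC gave 4.30, 3.60 and 3.44 RPKM, siACAT1-1 5.35, 4.81 and 5.31, and siACAT1-2 4.90, 3.84 and 4.58. The siACAT1-1 libraries lay above all siNC libraries, which 5.84% of genes did, and those of siACAT1-2 overlapped them. T24 gave 3.12, 4.75 and 3.35 with siNC, 4.14, 5.33 and 4.14 with siACAT1-1, and 3.82, 4.08 and 3.57 with siACAT1-2, with overlap in both comparisons. Over the mean of the 4 comparisons E2F6 was higher by 0.25 (SE 0.10, adjusted p = 0.40), and with the block by 0.25 (SE 0.08, adjusted p = 0.042). That blocked value ranged from 0.018 to 0.20 in adjusted p with libraries left out, and it passed in 6 of 20 such fits.

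The atypical E2Fs diverged. E2F8 was lower in the siACAT1 than in the siNC library of the same number in all 6 numbers with siACAT1-1 and all 6 with siACAT1-2. In T24 it read 3.06, 2.54 and 2.43 RPKM with siNC, 1.20, 2.23 and 0.691 with siACAT1-1, and 1.69, 2.34 and 1.75 with siACAT1-2. Both siACAT1 groups lay below the siNC libraries without overlap (7.21% and 6.26% of genes for siACAT1-1 and siACAT1-2), and the number 2 pairs differed least. UM-UC-3 gave 3.96, 4.81 and 2.53 with siNC, 3.02, 3.46 and 1.57 with siACAT1-1, and 3.72, 2.94 and 1.40 with siACAT1-2, so that the groups overlapped. Over the mean of the 4 comparisons the log2 fold change of E2F8 was -0.61 (SE 0.24, adjusted p = 0.36), the estimate farthest from 0 among the members. The block gave -0.66 (SE 0.13, adjusted p = 0.0027), with adjusted p between 6.0e-05 and 0.026 when libraries were left out. The comparison that passed by itself with the block was siACAT1-1 in T24 at -1.04 (SE 0.23, adjusted p = 0.0045, without the block -0.97 and 0.37), and it was lost without the siNC library numbered 1 or the siACAT1-1 library numbered 1 or 3 of T24.

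E2F7 differed between the siRNAs. In UM-UC-3 it stood at 2.97, 1.58 and 2.29 RPKM with siACAT1-1 and at 1.14, 0.985 and 1.29 with siACAT1-2, against the siNC values given above. The siACAT1-1 libraries overlapped siNC, and those of siACAT1-2 lay below it (4.59% of genes), with a log2 fold change of -0.74 (SE 0.39, adjusted p = 1.00, with the block 0.070). In T24 the values were 7.66, 14.5 and 4.23 with siACAT1-1 and 4.40, 11.6 and 6.90 with siACAT1-2, where the number 2 libraries were high in every group. The siRNA difference over both lines was -0.62 (SE 0.27, adjusted p = 0.26) and -0.58 with the block (SE 0.14, adjusted p = 0.0052).

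Of the pocket proteins, RBL1 was lower in the fit with the block and RB1 showed no change that the data could resolve. RBL1 in T24 read 6.30, 5.61 and 4.78 RPKM with siNC, 4.86, 5.10 and 2.53 with siACAT1-1, and 3.52, 4.01 and 3.72 with siACAT1-2. The siACAT1-2 libraries lay below all siNC libraries (6.26% of genes), and those of siACAT1-1 overlapped them. In UM-UC-3 the values were 4.33, 4.78 and 2.54 with siNC, 5.09, 4.61 and 1.86 with siACAT1-1, and 4.10, 3.65 and 2.10 with siACAT1-2, with overlap throughout. The log2 fold change was -0.56 with siACAT1-2 in T24 (SE 0.36, adjusted p = 0.74, with the block -0.53 and 0.041, lost without the siNC library numbered 1 or 3 or the siACAT1-2 library numbered 1 or 2 of T24, or the siNC or siACAT1-2 library numbered 2 of UM-UC-3) and -0.32 over the mean of the 4 comparisons (SE 0.22, adjusted p = 0.65, with the block -0.34 and 0.027). The blocked mean ranged from 0.0084 to 0.12 in adjusted p and passed in 13 of 20 fits with libraries left out.

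RB1, the retinoblastoma tumour suppressor, stood between 2.37 and 3.34 RPKM in UM-UC-3 siNC, between 2.41 and 3.45 with siACAT1-1 and between 3.06 and 3.65 with siACAT1-2. T24 gave 2.98 to 4.07, 2.94 to 4.67 and 2.79 to 3.93 in the same order of groups. Estimates against siNC ran from -0.01 to 0.18 (SE 0.20 each), and over the mean of the 4 comparisons RB1 differed by 0.09 (SE 0.12, adjusted p = 0.86, with the block 0.58). In bulk samples fewer cells with a transcript and less of it per cell cannot be told apart, for RB1 and for every member above.

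**Figure D3:**
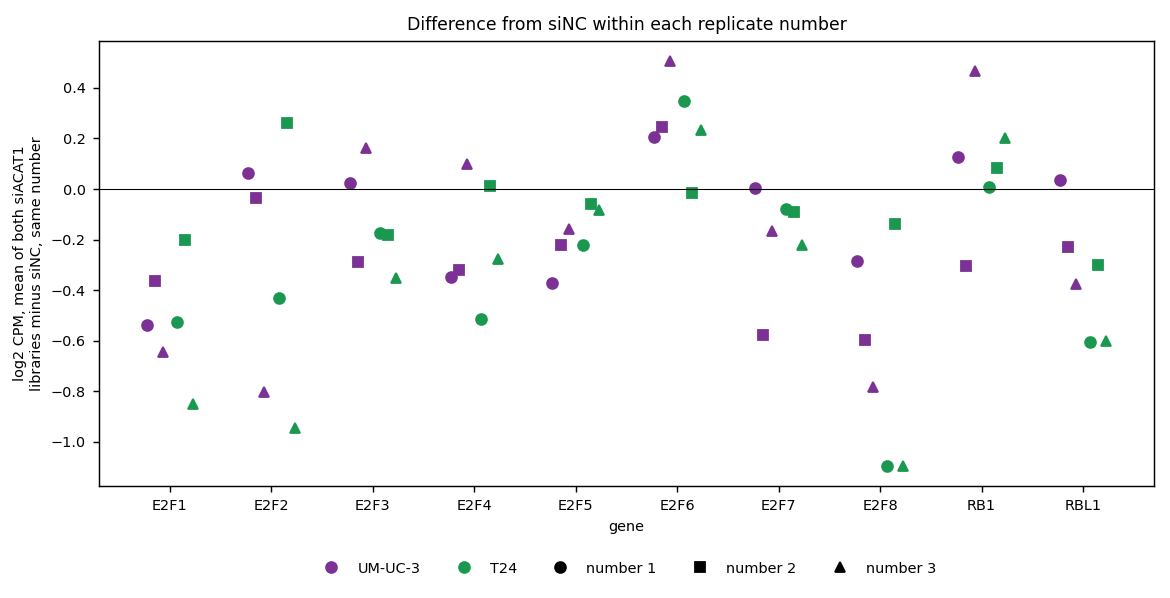
Mean log2 CPM of the siACAT1-1 and siACAT1-2 libraries minus the siNC library of the same number (y axis), for each gene (x axis), with colour giving the cell line and marker shape the number. E2F1, E2F5 and E2F8 are below 0 in 6 of 6 numbers, and E2F7 and RBL1 in 5 of 6. E2F6 and RB1 are above 0 in 5 of 6. These counts were not set against those of all genes.

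No member responded differently in UM-UC-3 and T24 beyond its error. The difference of the knockdown effect, UM-UC-3 minus T24, passed for 0 of the 10 members in the edgeR test with or without the block, in DESeq2 and in limma, 0 members had an unadjusted p under 0.05 (background 2.57%), and 0 of 20144 genes passed without the block (0.104% with it). The estimates ran from -0.13 for E2F7 (SE 0.47) to 0.34 for RBL1 (SE 0.44).

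Replicate number took up more of the variance of several members than the siRNA did, though not of the same members in both lines. In UM-UC-3 the number accounted for 88.0% of the variance of log2 CPM of E2F1, 89.0% for E2F2, 73.4% for E2F8 and 89.9% for RBL1, against a median of 38.2% over all genes tested. The libraries numbered 3 were the low ones, with E2F1 at -1.19, E2F2 at -1.07, RBL1 at -0.71 and E2F8 at -0.71 relative to the mean of the 9 libraries of the line. E2F3 at -0.19, E2F4 at -0.15, E2F5 at 0.01, E2F6 at -0.04, E2F7 at 0.07 and RB1 at -0.09 hardly deviated in the same libraries. In T24 the siRNA took the larger share for E2F1, E2F2, E2F8 and RBL1. Its shares there were 66.5%, 41.5%, 54.9% and 40.7%, against 22.4%, 21.0%, 20.7% and 33.7% for the number. The member most tied to the number in T24 was E2F7, with 79.7% of its variance (median over genes 44.0%) and a mean of 0.73 above the line in number 2. E2F5, by contrast, owed 72.2% of its variance in UM-UC-3 and 66.9% in T24 to the siRNA, where the median gene owed 25.5% in each line, and for E2F3 the siRNA took 54.9% and 71.9%. For E2F6 the siRNA took 69.6% in UM-UC-3 and 40.7% in T24, and for E2F7 80.2% and 1.98%.

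**Figure D4:**
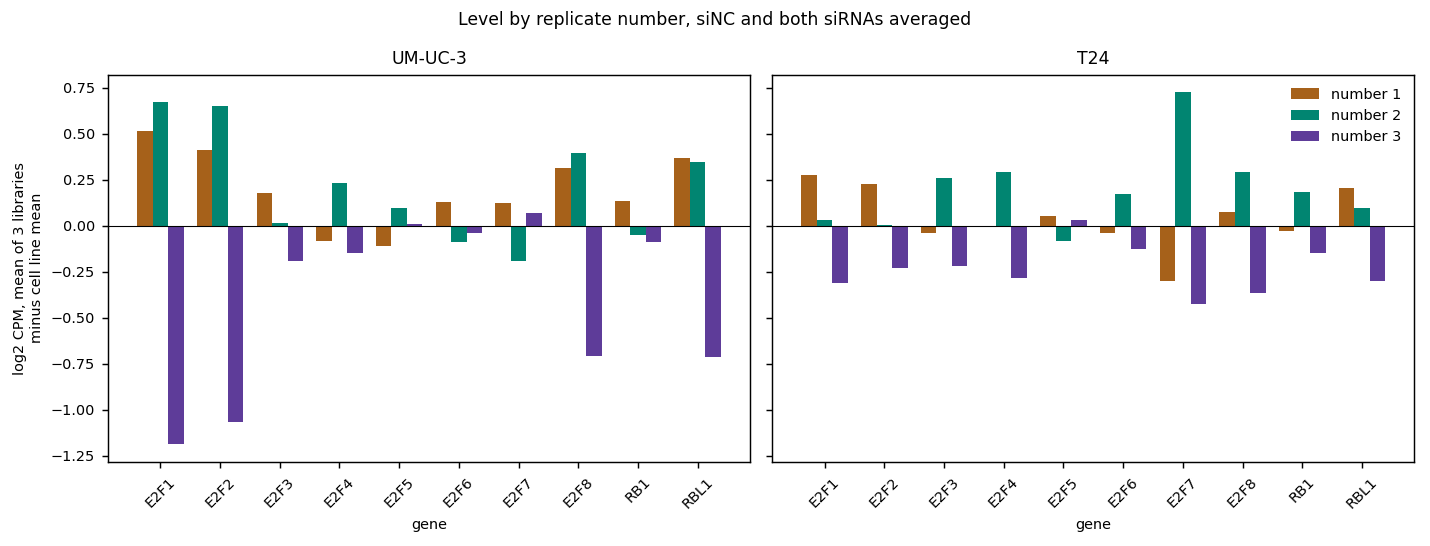
Level of each gene (x axis) by replicate number, as the mean log2 CPM of the 3 libraries of that number minus the mean of the 9 libraries of the cell line (y axis), in UM-UC-3 (left) and T24 (right). In UM-UC-3 the number 3 bars of E2F1, E2F2, E2F8 and RBL1 reach -0.71 to -1.19, and in T24 the number 2 bar of E2F7 reaches 0.73.

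Over the 18 libraries, with the cell line means removed, E2F1 and E2F2 varied together (Pearson r = 0.94), as did E2F1 and E2F8 (r = 0.86), E2F2 and RBL1 (r = 0.85) and E2F8 and RBL1 (r = 0.84). E2F5 and E2F6 ran opposite to each other (r = -0.73). These correlations are descriptions over libraries that share replicate numbers and siRNAs. Among all other genes tested, those most like E2F1 were ZNF519 (r = 0.95), CETN3 (0.94) and SHMT1 (0.93), those most like E2F8 were SMC1A (0.94), DLAT (0.93) and FANCI (0.91), and those most like E2F4 were GTF2A2 (0.93), TRAPPC4 (0.92) and ONECUT2 (0.91). Those most like RBL1 were ATAD2 (0.95), GINS4 (0.95) and RP4-621N11.2 (0.95), and the last shares 3.54% of the exon bases of RBL1 on the other strand, so their reads may be mixed. RB1 had no neighbour as close, with RPP14 (0.78), ARCN1 (0.78) and KLRK1 (0.77) at the top.

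The genes that E2Fs act on were followed as lists. Of 32 genes of DNA replication and S phase known as E2F targets, all 32 had estimates below 0 over the mean of the 4 comparisons, with a median of -0.35, where 50.2% of all genes were below 0 with a median of -0.0013 and the 10 E2F and RB genes had a median of -0.20 with 8 below 0. Without the block 0 of the 32 passed in edgeR (6 at an unadjusted p under 0.05, background 10.9%), and with it 25 were lower (background 6.46%) and 0 higher. POLA1, the catalytic subunit of DNA polymerase alpha, was at -0.55 (SE 0.20, adjusted p = 0.31, with the block 0.0025). The blocked calls by comparison numbered 1 for each siRNA in UM-UC-3, 23 for siACAT1-1 in T24 and 7 for siACAT1-2 in T24, against the shares of all genes given above (3.06%, 1.36%, 13.9% and 8.48%). The list includes genes such as CDC45 and MCM2 that the study itself singled out from these libraries, so its direction is not independent evidence.

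Mitotic genes, which the MuvB complex controls with MYBL2 and FOXM1 and represses with E2F4 and RBL1 or RBL2 in resting cells, were also below their controls. Their list includes CDC20, which the study also singled out, so the direction of this list is not independent evidence either. All 22 were below 0 over the mean of the 4 comparisons, with a median of -0.44, and 0 passed in edgeR when the block was left out, with 12 at an unadjusted p under 0.05 (background 10.9%), whereas 21 passed with it, all lower (background 6.46%). The medians were -0.12 and -0.27 in UM-UC-3 with siACAT1-1 and siACAT1-2, with 0 and 2 blocked calls, and -0.87 and -0.61 in T24, with 22 and 18 (backgrounds 3.06%, 1.36%, 13.9% and 8.48%). The difference of the effect, UM-UC-3 minus T24, was above 0 for all 22, with a median of 0.53 (0.58 with the block) where the median over all genes was -0.0033 (-0.0067), but 0 of the 22 passed in edgeR in either fit, with 2 at an unadjusted p under 0.05 without the block (background 2.57%) and 21 with it (background 9.46%). For the 32 replication genes that median was 0.075, with 10 below 0 and 0 calls in either fit, where 0 had an unadjusted p under 0.05 without the block and 4 with it. KIF20A, a kinesin of cytokinesis, was lowest at -0.75 (SE 0.47, adjusted p = 0.61, with the block -0.99 and 0.00011), and MKI67, the Ki-67 antigen, followed at -0.73 (SE 0.28, adjusted p = 0.35, with the block 1.4e-05). A list of 8 genes, made up of MuvB subunits, DYRK1A, MYBL2 and FOXM1, had a median of -0.14. FOXM1 itself was at -0.53 (SE 0.19, adjusted p = 0.31, with the block 0.00011). With RBBP4 (-0.29, with the block adjusted p = 0.011) it made 2 blocked calls, both lower (background 6.46%).

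Upstream of the pocket proteins, 10 RB kinases, cyclins and CDC25A gave 0 calls when the block was left out, with 0 at an unadjusted p under 0.05, and 2 with it, CCNA2 (cyclin A2, -0.42, with the block adjusted p = 0.0012) and CCND1 (cyclin D1, -0.34, with the block adjusted p = 0.0058), both lower (background 6.46%). The 7 CDK inhibitors were split, with 1 blocked call in each direction (background 5.95% higher and 6.46% lower). CDKN1A (p21) was higher by 0.60 with the block (SE 0.14, adjusted p = 0.0098) and CDKN2C (p18) lower, at -0.60 (SE 0.13, adjusted p = 0.0042), while neither passed without the block (0.52 and -0.53, adjusted p = 0.72 and 0.77). CDKN1A differed widely between the T24 siNC libraries, at 0.724, 7.29 and 2.15 RPKM, high in number 2 as E2F7 was. CDKN2A and CDKN2B had 0 to 2 reads in every UM-UC-3 library and 371 to 1259 and 90 to 342 in T24, so no change could be measured for them in UM-UC-3. The DP partners TFDP1 and TFDP2 and the third pocket protein, RBL2, had 0 calls in either fit, with estimates from -0.12 to 0.02 over the mean of the 4 comparisons, and none of the 3 had an unadjusted p under 0.05 there without the block. The E2F6 partners of the Polycomb complex PRC1.6 had a median of -0.0058 over 10 genes and 2 blocked calls (background 12.4%), CBX3 lower (-0.31, with the block adjusted p = 0.0069) and L3MBTL2 higher (0.26, with the block adjusted p = 0.023), and CBX3 is among the genes that the study singled out. Of 8 apoptosis genes that E2F1 can activate, 7 were above 0 with a median of 0.14.

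**Figure D5:**
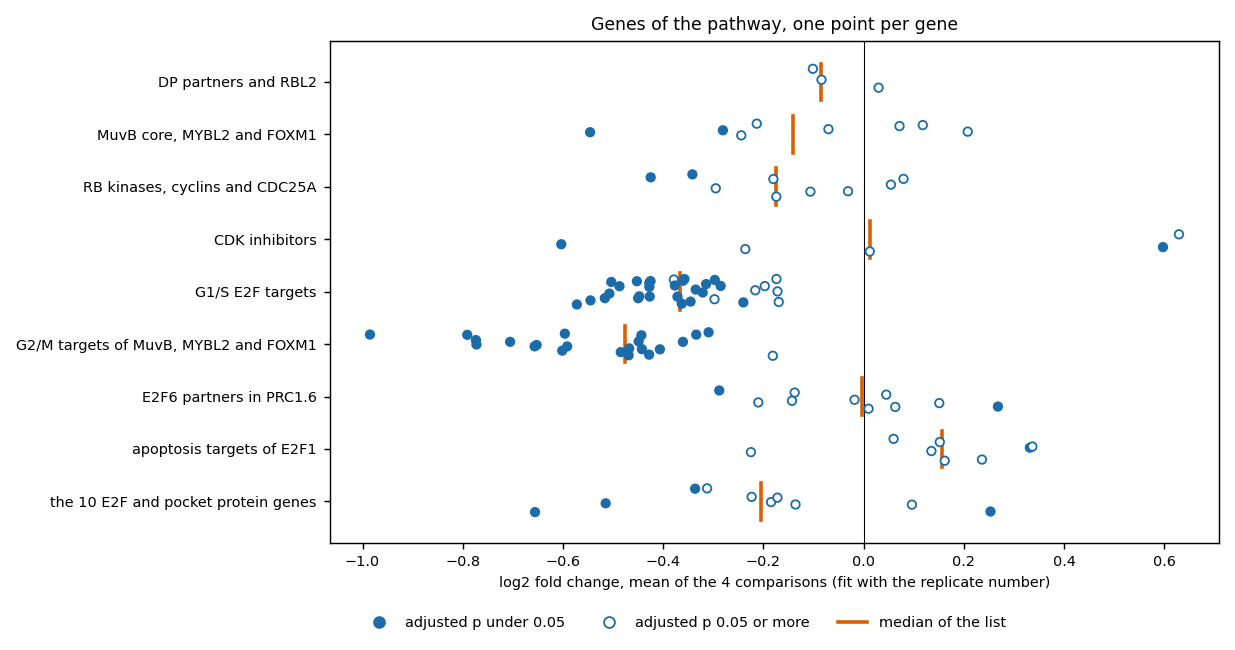
Log2 fold change over the mean of the 4 comparisons in the fit with the replicate number (x axis), with 1 point per gene, filled where the adjusted p is under 0.05, and a bar at the list median, leaving out CCND2, CDKN2A, CDKN2B and TFDP3, whose counts were at or near 0 in a group. All 32 replication genes and all 22 mitotic genes lie below 0, while the other lists spread around 0.

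These lists also varied with the replicate number. In UM-UC-3 the libraries numbered 3 had all 32 replication genes below the line mean, with a median of -0.76, and 21 of 22 mitotic genes, with a median of -0.39. In T24 the libraries numbered 2 had all 22 mitotic genes below the line mean (median -0.69) and 29 of 32 replication genes (median -0.32). There E2F7 (0.73), E2F8 (0.29), E2F4 (0.29), E2F3 (0.26), RB1 (0.18) and E2F6 (0.17) were each at their highest of the 3 numbers. E2F1 stood at 0.03, E2F2 at 0.002, RBL1 at 0.09 and E2F5 at -0.08, which were not their highest. The replication genes were also low in T24 number 3, with 30 of 32 below the line mean (median -0.15), and all 32 were above it in number 1 (median 0.51). Over all genes tested the medians were 0.0021 in UM-UC-3 number 3 and 0 in T24 number 2. They were 0.0052 in T24 number 3 and -0.011 in T24 number 1. The part of the number in the differences between siRNA groups was not tested beyond the block.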

How the data were processed

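Total RNA of 18 cultures was sequenced with a stranded mRNA kit with molecular identifiers. Per the labels, reads were trimmed with Trimmomatic 0.36, aligned to GRCh38 with STAR 2.5.3 and counted per gene with featureCounts (Subread 1.5.1). The strand setting and the handling of the identifiers are not given in the sources used here. The deposited count table holds raw counts, and the deposited RPKM table holds the authors' counts scaled by the listed gene length and the library's total counts. The 18 pairs of libraries within a group differed by a chi-square of 13.0 to 194 per degree of freedom, so all were kept as separate replicates.

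Counts were tested with edgeR 4.0.16 (R 4.3.3) by the quasi-likelihood F test on 18 libraries with 6 group coefficients, TMM scaling and filterByExpr, and p-values were adjusted by Benjamini-Hochberg over 20144 genes. The study's own differential test is not given in the sources used here. The mean of the 4 comparisons with siNC, the difference between the siRNAs and the difference between the lines were contrasts of the same fit. Libraries of the same number deviated together from their group means (r from 0.115 to 0.576 in UM-UC-3 and from 0.356 to 0.686 in T24, in 9 pairs each), so the number was also fitted as a block within each line. The control cells of the lines were compared without a block. Levels are RPKM, and log2 CPM values used a prior count of 2. Alternatives were DESeq2 1.42.0 and its size factors, limma 3.58.1 on log2(RPKM + 0.1) and log2(RPKM + 1), no filter on low counts, and leaving out libraries. The fits were run on simulated counts with the same spread for every gene and no effect of cell line or replicate number. Those counts cannot decide between the fits with and without the block. Beside the members, the text may name the 2 lowest genes and the highest gene of each list over the mean of the 4 comparisons and any that passed, while CDKN2B and the genes most like RBL1 were named after their values were seen. Single results of some listed genes are not reported here. The 3 genes most like a member were found by Pearson correlation of log2 CPM centred by line. The members and the gene lists were chosen with earlier results of these data known. Promoter sequences are from RefSeq (GRCh38.p14).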

Additional observations from a re-analysis of the deposited data

Results flagged for a closer look

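The siRNAs gave different values for 4 members, taken as siACAT1-2 minus siACAT1-1 over both cell lines on the log2 scale. For E2F3 the difference of -0.64 passed without the block (edgeR, adjusted p = 0.028). With the replicate number as a block the edgeR differences were 0.59 for E2F1 (adjusted p = 0.0012), 0.30 for E2F5 (adjusted p = 0.015) and -0.58 for E2F7 (adjusted p = 0.0052). Without it these 3 did not pass in edgeR with the filter on low counts (adjusted p = 0.45, 0.13 and 0.26). Also without a block, DESeq2 called E2F5, and edgeR without the filter called E2F7. In the same comparison 20.6% of all genes passed with the block and 2.56% without it. ACAT1 itself was lower with siACAT1-2 than with siACAT1-1 by a log2 difference of -0.62, and the part of this gap in the differences of the 4 members was not tested.

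E2F3 in T24 was above siNC in all 3 numbers with siACAT1-1 and below it in all 3 with siACAT1-2, with a gap of 0.73 between the median differences. This opposition within T24 was not tested by itself.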

How the results depend on the processing

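With the replicate number as a block, the members called went from 0 to 1 for siACAT1-1 in UM-UC-3, from 0 to 3 for siACAT1-1 in T24, from 0 to 2 for siACAT1-2 in T24, from 0 to 4 over the mean of the 4 comparisons and from 1 to 4 between the siRNAs, and it left the counts for siACAT1-2 in UM-UC-3 and for the difference between the lines' responses at 0. Without the filter on low counts, 2 members were called for siACAT1-1 in T24 (E2F1 and E2F8), 1 over the mean (E2F8) and 2 between the siRNAs (E2F3 and E2F7). DESeq2 called 2 between the siRNAs (E2F3 and E2F5). With 1 library left out and no block, the counts stayed at 0 in the 4 comparisons, over the mean and between the lines' responses, ranged from 0 to 1 between the siRNAs and stayed at 2 between the control cells. With the block and 1 library left out, or the libraries of 1 number, both added after seeing the data, they ranged from 0 to 2 and from 0 to 1 in UM-UC-3, from 1 to 5 and from 1 to 3 in T24, from 2 to 6 over the mean and from 3 to 6 between the siRNAs. Without the 3 UM-UC-3 libraries numbered 3 the counts with the block were 0 for siACAT1-1 in UM-UC-3, 2 for each siRNA in T24, 2 over the mean (E2F1 and E2F8) and 3 between the siRNAs. Without the 3 T24 libraries numbered 2 they were 2, 5, 1, 6 and 6 for siACAT1-1 in UM-UC-3, siACAT1-1 in T24, siACAT1-2 in T24, the mean and the siRNA difference. The sign of E2F7 turned with the block for siACAT1-1 in T24 (-0.024, from 0.01) and over the mean without T24 siNC replicate 2 (0.056, from -0.16), where leaving out 1 library gave -0.29 to 0.056, none called. The cause of these shifts was not tested. With 3 libraries a group, and 20 to 74 reads of E2F2 in T24, small changes could not be resolved.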

Other observations

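CDKN1A, which encodes the CDK inhibitor p21, did not overlap siNC in UM-UC-3. Its RPKM was 2.65, 2.57 and 2.88 with siNC, 5.61, 3.03 and 6.57 with siACAT1-1, and 4.74, 5.40 and 4.98 with siACAT1-2, so that all 6 siACAT1 libraries lay above the controls, as for 5.84% of genes with siACAT1-1 and 7.4% with siACAT1-2. Neither comparison passed in edgeR without the block (log2 fold changes 0.90 and 0.86, SE 0.69 each, adjusted p = 0.98 and 1.00), and with the block siACAT1-1 passed (0.87, SE 0.23, adjusted p = 0.043) and siACAT1-2 did not (0.87, SE 0.23, adjusted p = 0.063). In T24 the number 2 libraries stood at 7.29, 8.06 and 6.41 RPKM with siNC, siACAT1-1 and siACAT1-2, and the other libraries between 0.724 and 3.45.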
